A study of Homo sapiens with 6 samples.

Results

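The genes described here encode the insulin-like growth factor (IGF) binding proteins and the receptors and adaptors through which IGFs and insulin act. The set holds 10 of the 58735 gene identifiers in the count files, taken by GENCODE 29 symbol: the binding proteins IGFBP1, IGFBP2, IGFBP3, IGFBP4, IGFBP6 and IGFBP7, the receptors IGF1R and INSR, and the adaptors IRS1 and IRS2. The set was chosen by function and with the measured difference in counts between B35 and untreated libraries already known, so its fold changes and calls are given as a description, without p-values. RNA sequencing compared cells labelled A549, a line from a human non-small cell lung cancer labelled wild type, after 72 h with B35 at 2 µM or after 72 h untreated. Each group had 3 libraries. The series names B35 as an LSD1 inhibitor. LSD1 is a histone demethylase, and its gene is KDM1A. The labels name no solvent for the untreated cells.

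IGF1 and IGF2 bind the receptor tyrosine kinase IGF1R, and insulin binds its close relative INSR. Both receptors phosphorylate the adaptors IRS1 and IRS2, which recruit phosphatidylinositol 3-kinase and so activate AKT, and AKT keeps the FOXO transcription factors out of the nucleus. The secreted binding proteins hold IGFs in the extracellular fluid and regulate how much reaches the receptor, and several also act on cells without IGF. IGFBP7 binds IGFs only weakly. INSR, IRS2 and IGFBP1 are known FOXO target genes.

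Library totals ran from 17141478 to 18530670 counts. Of 14773 genes tested, 1303 were higher and 973 lower with B35 by edgeR's quasi-likelihood test with Benjamini-Hochberg adjustment at 0.05, which is 8.82% and 6.59% of them. A gene is said to have risen or fallen only where it passed this test. Separate cultures are not mentioned in the labels, so the p-values reflect no more than the spread among these libraries, which may be technical. KDM1A was at 198 ± 2.56 CPM (counts per 1e+06 library counts) in untreated cells and 184 ± 8.97 CPM with B35 (SD, n = 3 each) and did not pass (adjusted p = 0.432). The keratin genes KRT8, KRT18 and KRT7 were abundant, at 1663, 526 and 892 CPM in untreated cells, and KRT8, which shares exons with KRT18, fell to 1117 CPM with B35 (adjusted p = 0.00611). Of the 7 tested genes in that list of 9 epithelial markers, EPCAM rose from 3.36 to 7.21 CPM (adjusted p = 0.00248) and AKR1C1 from 13.4 to 31.9 CPM (0.000407), and no other gene but KRT8 passed. KRT19 and CDH1 of the same list were low, at 0.243 and 1.34 CPM in untreated cells, and KRT19 had too few counts to test. Summed levels were at most 0.722 CPM for 5 alveolar type 2 genes in every library and at most 1.55 CPM for 6 immune genes. For 7 fibroblast genes the sum was 27.1 to 27.3 CPM in untreated and 19.8 to 22.8 CPM in B35 libraries, nearly all of it COL1A1. For 5 endothelial genes it was 5.91 to 9.28 and 7.8 to 9.71 CPM, most of it CDH5. The part of these markers in the results was not tested. Some values went against the A549 label. ALDH1A1 and AKR1B10, known to be abundant in A549, were at 0.209 and 1.1 CPM in untreated cells. CDKN2A, which is known to be deleted in A549, had 115 to 178 CPM in the 6 libraries, and its neighbours CDKN2B and MTAP had 11.8 to 24.3 and 21.9 to 26.7 CPM. CDKN2A, CDKN2B and MTAP were chosen after their values were seen, and CDKN2A shares exons with the antisense gene CDKN2B-AS1.

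Among the secreted binding proteins, IGFBP3 and IGFBP1 changed most. IGFBP3 is the main carrier of IGFs in blood (ENSG00000146674, hg38, chromosome 7, 45912245 to 45921874, minus strand). It was measured at 86.7, 90.0 and 97.0 CPM in the untreated libraries and at 630, 505 and 588 CPM in the B35 libraries. The lowest B35 library was far above the highest untreated library. IGFBP3 was 6.3-fold higher with B35 (log2 2.65 ± 0.11, SE), the 23rd highest log2 fold change among the 14773 genes tested, counting from the largest rise, and the 3rd among the 9846 with a mean of at least 10 CPM. IGFBP1, a binding protein that liver makes when insulin is low (ENSG00000146678, chromosome 7, 45888357 to 45893668, plus strand), was at 37.9, 42.1 and 40.2 CPM untreated and at 186, 165 and 173 CPM with B35. The groups did not overlap here either. IGFBP1 was 4.35-fold higher (log2 2.12 ± 0.096, SE), the 67th highest among the 14773 genes and the 6th among the 9846. In bulk RNA, a higher level per cell and a larger share of cells with the transcript cannot be told apart. Replicates of IGFBP1 differed little, with a coefficient of variation of 5.21% in untreated and 6.17% in B35 libraries.

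IGFBP7 rose less and less evenly. Its gene lies on chromosome 4 (57030773 to 57110385) and shares exons with POLR2B and IGFBP7-AS1. It was at 150, 172 and 149 CPM untreated and at 182, 261 and 245 CPM with B35, where replicate 1 sat closest to the untreated libraries. The groups did not overlap, and IGFBP7 was 1.46-fold higher (log2 0.54 ± 0.13). Its call was lost when control replicate 1 or 3 was left out (log2 0.51 and 0.50), and likewise for B35 replicate 2 or 3 (0.43 and 0.49). IGFBP6, which prefers IGF2, was at 97.0, 126 and 109 CPM untreated and at 101, 162 and 186 CPM with B35. The groups overlapped through B35 replicate 1, and the gene did not pass (log2 0.43 ± 0.19). Without that library the log2 fold change was 0.65 and the gene passed, as it also did with GC and length trends removed (0.37) and with no filter on low counts (0.42). IGFBP4, an inhibitor of IGF action that the protease PAPP-A inactivates, had the highest mean deposited FPKM (fragments per kilobase of exon, scaled to library depth) of the set in both groups, although in B35 replicate 1 it was at 105, below IGFBP3 (136) and IGFBP1 (111). It was at 273, 290 and 279 CPM untreated and at 234, 316 and 326 CPM with B35, so B35 replicate 1 was below and the other B35 libraries above every untreated library. IGFBP4 did not pass (log2 0.06 ± 0.12). IGFBP2 had no count in the untreated libraries or in B35 replicates 1 and 2, and 2 counts in B35 replicate 3. It was below the filter of the test (minimum count 10, minimum total 15). For scale, 3 counts correspond to 0.162 to 0.175 CPM by library total.

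**Figure D1:**
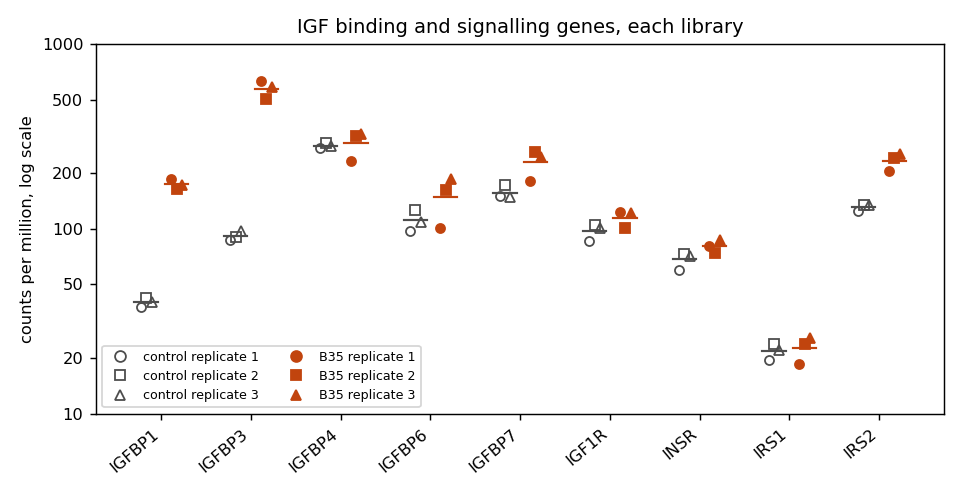
Each point is a library, in CPM on a log axis, for the 9 genes with enough counts to test; open symbols are untreated, filled symbols B35, and lines are group means. IGFBP3 and IGFBP1 are separated widely, with B35 libraries from 505 to 630 and from 165 to 186 CPM, while B35 replicate 1 is the lowest B35 library for IGFBP4, IGFBP6, IGFBP7, IRS1 and IRS2.

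Neither receptor passed the test. IGF1R (chromosome 15, 98648539 to 98964530) was at 85.6, 105 and 101 CPM untreated and at 123, 101 and 121 CPM with B35, with overlap between the groups. INSR (chromosome 19, 7112255 to 7294034) was at 60.2, 73.2 and 71.2 CPM untreated and at 80.9, 74.0 and 87.2 CPM with B35, where the groups just failed to overlap. The log2 fold change was 0.24 ± 0.11 for each. The deposited FPKM of IGF1R was 1.07 times that of INSR on average in untreated and in B35 libraries alike (SD 0.0035 and 0.0594, n = 3 each).

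Of the adaptors, IRS2 rose and IRS1 did not pass, and the difference between them was not tested. IRS2 (ENSG00000185950, chromosome 13, 109752698 to 109786568, minus strand) was at 125, 135 and 134 CPM untreated and at 205, 241 and 253 CPM with B35. All B35 libraries were above all untreated libraries, and IRS2 was 1.77-fold higher (log2 0.83 ± 0.10). It shares exons with the antisense gene AL162497.1. IRS1 (chromosome 2, 226731317 to 226799759) was at 19.5, 23.9 and 22.1 CPM untreated and at 18.5, 23.7 and 25.8 CPM with B35, so the groups overlapped fully. The log2 fold change of IRS1 was 0.06 ± 0.14. Per exon length, the deposited FPKM of IRS2 was 7.38 ± 0.442 times that of IRS1 in untreated and 12.6 ± 0.781 times in B35 libraries (SD, n = 3 each).

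Promoter sequence was compared within each family, for a gene that rose and a relative that did not: IGFBP3 with IGFBP4, and IRS2 with IRS1. The 250 bases before each RefSeq start were searched (GRCh38.p14, 5′ to 3′ on the strand of the gene), and 8 of the 10 genes had an entry, all but IGFBP1 and IGFBP7. The last 30 bases before the start are shown for IGFBP3 and IGFBP4, for their TATA-type letters, and the whole window for IRS2 and IRS1. Capitals mark 5 motifs searched on both strands: AAAACAA, the letters of the insulin response element bound by FOXO factors, ACGTG, the core of the hypoxia response element, GGGCGG, the GC box bound by SP1, TATAAA and TATATA. Copies of GGGCGG that follow each other can overlap by a base. The IGFBP3 window lies inside the GENCODE 29 bounds of the gene, whose annotated start is further upstream.
IGFBP3 (chr7:45921273-45921302, minus strand): TATATAgcggccggcgcgcccgggCCGCCC
IGFBP4 (chr17:40443420-40443449, plus strand): gTATAAAgtccgggggagccggtcccgggc
IRS2 (chr13:109786584-109786833, minus strand): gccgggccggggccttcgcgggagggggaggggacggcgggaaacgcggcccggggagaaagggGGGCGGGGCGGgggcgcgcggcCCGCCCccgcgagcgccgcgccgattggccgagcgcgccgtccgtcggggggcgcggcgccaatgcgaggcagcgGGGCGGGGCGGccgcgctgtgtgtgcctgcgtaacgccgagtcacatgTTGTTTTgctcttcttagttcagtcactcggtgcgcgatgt
IRS1 (chr2:226799821-226800070, minus strand): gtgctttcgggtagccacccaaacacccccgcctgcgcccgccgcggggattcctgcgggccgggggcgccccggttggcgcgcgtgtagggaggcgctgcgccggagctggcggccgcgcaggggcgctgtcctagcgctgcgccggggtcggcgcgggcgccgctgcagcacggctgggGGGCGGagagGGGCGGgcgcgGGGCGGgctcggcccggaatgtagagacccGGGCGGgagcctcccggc

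The windows of IGFBP3 and IGFBP4 each held a TATA-type motif, TATATA from 30 to 25 bases before the start of IGFBP3 and TATAAA from 29 to 24 bases before that of IGFBP4. TATATA was found in 3.73% and TATAAA in 10.7% of all 35116 promoter windows of this length. The window of IRS2 held AAAACAA on the opposite strand, read as TTGTTTT, from 41 to 35 bases before the start, and 6.64% of all windows held that motif. AAAACAA was in no window of the other 7 genes with an entry. ACGTG, present in 18.5% of all windows, occurred only in that of IGF1R, and GGGCGG, present in 42.6%, occurred in a window of all 8 genes. IRS2 held 5 copies of GGGCGG and IRS1 held 4. A match is a description of the letters and not a site of binding.

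Of the 10 genes, 9 had enough counts to test, 4 rose, none fell and 5 did not pass, beside a background of 8.82% of all tested genes higher. At an unadjusted p under 0.05, and with DESeq2 or limma-voom, none was lower either. The groups did not overlap for 5 of the 9 (the 4 that rose and INSR), and 18.8% of all genes tested were likewise higher without overlap. The median log2 fold change of the 9 was 0.43, against 0.0067 over all genes tested. IGFBP1, IGFBP3 and IRS2 passed in all 16 fits that were run.

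**Figure D2:**
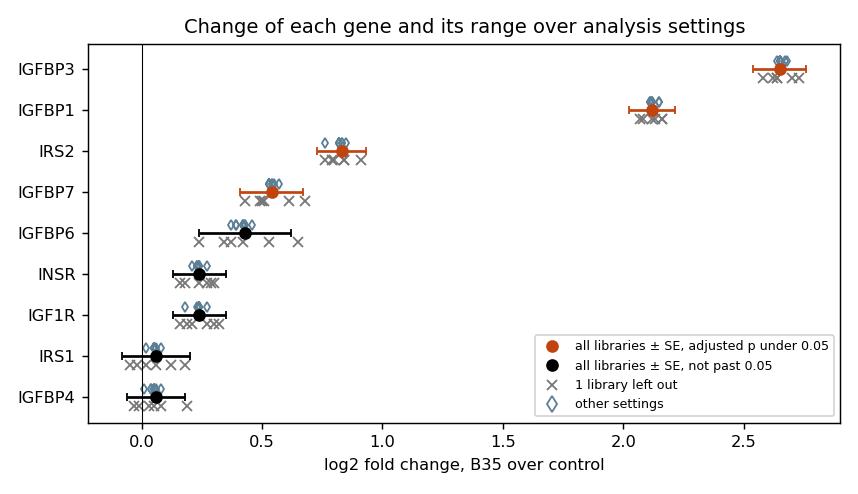
Log2 fold change of B35 over control (x axis) for each tested gene (y axis); circles with bars are the estimate from all 6 libraries ± SE, crosses leave out 1 library each, and diamonds are other normalizations, filters and tests. IGFBP3 stays between 2.58 and 2.73 and IGFBP1 between 2.07 and 2.16, whereas IGFBP6 runs from 0.24 to 0.65 and IGFBP4 and IRS1 lie on either side of 0.

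B35 replicate 1 stood apart over all genes, and within the set in IGFBP4, IGFBP6, IGFBP7 and both adaptors. On the second principal component of all tested genes it was at 31.5, and the other B35 libraries were at −12.4 and −20.7. Without it 3342 of all genes passed, against 2276 with all libraries. In this library IGFBP4 was 0.728, IGFBP6 0.581 and IGFBP7 0.719 times the mean of the other B35 libraries. IRS1 was 0.749 times and IRS2, which rose in every fit, 0.829 times. IGFBP1 and IGFBP3 went the other way, at 1.1 and 1.15 times. The median over all genes tested was 1.0, but scaling between libraries holds this median near 1. It is no measure of how far this library differed. The share of counts from the mitochondrial chromosome was 5.2% in B35 replicate 1, 4.04% and 3.52% in the other B35 libraries, and 4.14% to 4.35% in untreated libraries, and its part in these values was not tested.

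Per exon length, the binding proteins changed their order. In untreated cells the deposited FPKM values were highest for IGFBP4 (127 ± 3.96), followed by IGFBP6 (82.0 ± 10.7) and IGFBP7 (81.1 ± 6.46), which overlapped each other. IGFBP1 (24.1 ± 1.25) and IGFBP3 (19.9 ± 1.19) came next, then IRS2 (16.1 ± 0.723), and these neighbours did not overlap. IGF1R (6.94 ± 0.729) and INSR (6.5 ± 0.669) overlapped, and IRS1 was lowest among the detected genes at 2.18 ± 0.219 FPKM. With B35 the ranges of all 5 detected binding proteins overlapped with the next in order, from IGFBP4 (131 ± 22.6) through IGFBP3 (124 ± 13.1), IGFBP7 (117 ± 21.5) and IGFBP6 (109 ± 31.8) to IGFBP1 (104 ± 6.15 FPKM, SD, n = 3). The order of the other genes was the same as in untreated cells.

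The summed FPKM of the binding proteins was 334 ± 22 in untreated and 585 ± 59.8 in B35 libraries. Within that sum, IGFBP3 made up 5.96% ± 0.472 in untreated and 21.4% ± 4.23 in B35 libraries, and IGFBP1 7.23% ± 0.14 and 18.0% ± 2.97. The share of IGFBP4 was 38.1% ± 1.3 and 22.2% ± 1.79 (SD, n = 3 each). These are shares of transcripts and not of secreted protein.

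**Figure D3:**
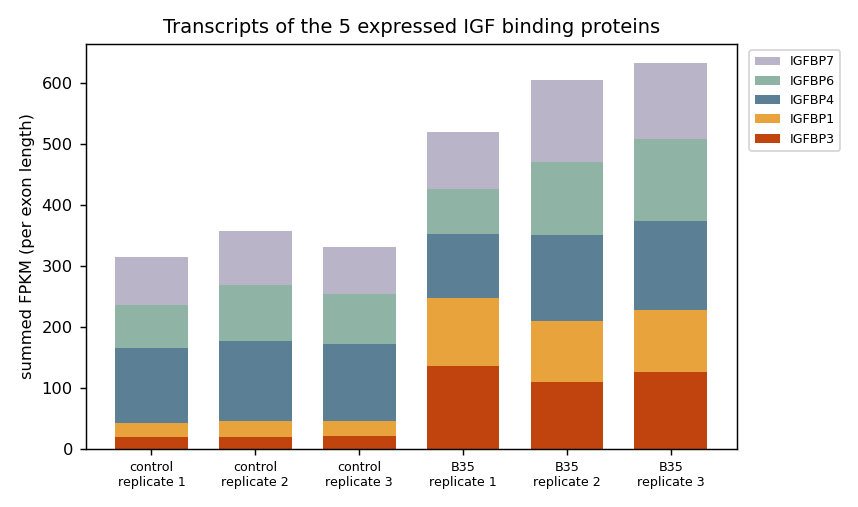
Stacked bars give the deposited FPKM (y axis, from 0) of the 5 detected IGF binding proteins in each of the 6 libraries (x axis). The bars reach 314 to 358 in untreated and 518 to 632 in B35 libraries, and the IGFBP3 and IGFBP1 segments account for most of the added height.

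IGFBP1 and IGFBP3 are neighbours on chromosome 7, separated by 18.6 kb, with start sites 33.5 kb apart. The nearest tested protein-coding genes outside the pair are ADCY1, an adenylyl cyclase, 165.2 kb from IGFBP1, and TNS3, a tensin of cell adhesions, 1353.3 kb from IGFBP3. Neither passed (log2 0.24 ± 0.17, edgeR adjusted p = 0.375, and 0.04 ± 0.090, 0.808). Within 2 Mb of the start of IGFBP3, 29 genes were tested. Of the 27 besides the pair, 5 passed, beside 15.4% of all genes tested in either direction, and 3 of these were higher, the largest MYO1G, a myosin of blood cells, at log2 0.97 and AC004870.2 at 0.95. These were chosen for their size after their values were seen.

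**Figure D4:**
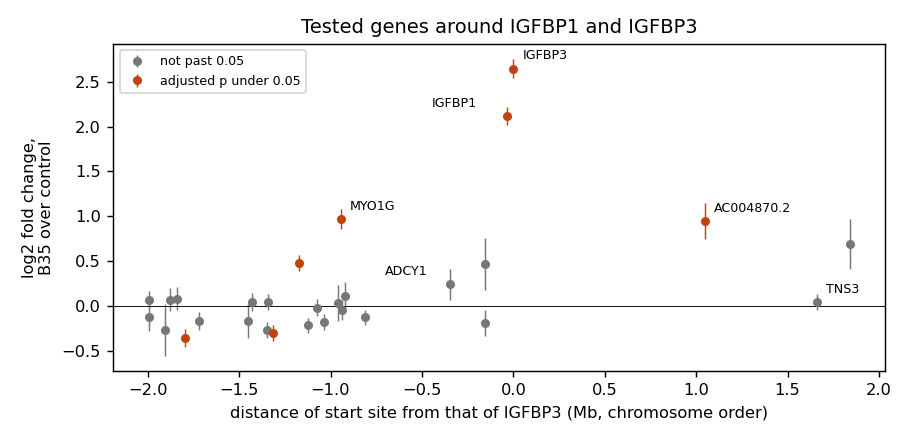
Each point is a tested gene, placed by the distance of its start site from that of IGFBP3 in Mb (x axis), with its log2 fold change ± SE (y axis). IGFBP3 at 2.65 and IGFBP1 at 2.12 stand above the other genes of the window, none of which exceeds 0.97.

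The nearest tested protein-coding gene above IGFBP4, and that above IGFBP2, was also a tensin gene. TNS4, 18.1 kb from IGFBP4, was at log2 0.09 ± 0.10 (edgeR adjusted p = 0.613), and TOP2A, on the other side of IGFBP4 at 25.5 kb, was at 0.15 ± 0.13 (0.446). TNS1, the nearest tested protein-coding gene above IGFBP2 at 1135.2 kb, was at 0.63 ± 0.20 (0.0577), and RPL37A, below it at 53.6 kb, was at −0.16 ± 0.13 (0.461). None of these 4 passed. IGFBP5, which lies between IGFBP2 and TNS1, had no count and was not tested.

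The genes whose libraries followed the pattern of IGFBP3 most closely were ANTXR2, an anthrax toxin receptor that binds matrix proteins, LUCAT1, AL355512.1 and ABCA1, a cholesterol exporter. Likeness was the mean absolute difference of log2 CPM relative to the control mean over the 6 libraries, among 13622 genes. It was 0.079 for ANTXR2, which had 3.29, 3.27 and 3.33 CPM untreated and 25.4, 17.6 and 23.1 CPM with B35. It was 0.202 to 0.218 for the next 3. For IGFBP1 the closest was TXNIP, a protein that binds thioredoxin and lowers glucose import, at 0.062, then ABCA1 (0.13), TMEM45B (0.135) and SULT1C2 (0.15). TXNIP was at 39.5, 41.0 and 41.6 CPM untreated and at 168, 163 and 171 CPM with B35. None of these genes lies on chromosome 7. Each gene was set to its own control mean, so a small difference mainly marks a similar fold change with B35. The set was chosen with that contrast known, so this likeness is a description and no evidence of shared regulation.

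The ligands were not detected. IGF1, IGF2 and INS had no count in any library, which allows up to 0.162 to 0.175 CPM per library. Both IGF2 and INS share exons with the read-through gene INS-IGF2, and IGF1 shares exons with HELLPAR, so the counts of all of them are uncertain. IGF2R, which clears IGF2 from the cell surface, was at 184 ± 48.1 CPM untreated and 193 ± 22.6 CPM with B35 (SD, n = 3 each) and did not pass (adjusted p = 0.835). Of the 2 tested genes of this list none passed with edgeR, DESeq2 or limma-voom, and none had an unadjusted p under 0.05.

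Genes of other proteins with an IGFBP-type domain fell in 2 of 8 tested and rose in none, beside 6.59% and 8.82% of all genes. Those that fell were CCN1 and CCN2, matricellular proteins that act on integrins. CCN1 was at 722, 914 and 823 CPM untreated and at 364, 324 and 283 CPM with B35 (2.54-fold lower, adjusted p = 0.00011), without overlap. CCN2 was at 109 ± 12.4 and 36.4 ± 8.33 CPM (3.0-fold lower, adjusted p = 0.000214). IGFBP5 had no count, and IGFALS, the third partner in the circulating complex of IGF and IGFBP3, was too low to test. At an unadjusted p under 0.05, 2 genes of this list were higher, DESeq2 called 1 and limma-voom none, 1 rose with upper-quartile scaling, and 2 rose with GC and length trends removed or with no filter on low counts. The median log2 fold change of the list was 0.00.

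Of 9 tested proteases that cut IGFBPs and their inhibitors, 4 rose and none fell, beside 8.82% and 6.59% of all genes, with a median log2 fold change of 0.40. STC1, a glycoprotein that inhibits PAPP-A, was at 0.167, 0.166 and 0.535 CPM untreated and at 7.74, 3.89 and 5.43 CPM with B35. It rose 19.5-fold (log2 4.28 ± 0.43, adjusted p = 0.000275), a size that rests on untreated libraries close to 3 counts and that ran from 4.0 to 5.03 on the log2 scale with 1 library left out. PAPPA itself, the gene of PAPP-A, was at 1.95 ± 0.34 and 1.77 ± 0.334 CPM (adjusted p = 0.785). ADAM12, a metalloprotease that cuts IGFBP3, rose 1.64-fold (adjusted p = 0.00422). The plasminogen activators PLAU, which shares exons with C10orf55, and PLAT rose 1.54-fold and 1.89-fold (0.00341 and 0.00353). None was lower at an unadjusted p under 0.05, with DESeq2 or with limma-voom, and 6 rose without B35 replicate 1.

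Reported partners of the binding proteins went in both directions, with 2 of 9 tested genes higher and 2 lower, beside 8.82% and 6.59% of all genes. ITGA5, a subunit of the fibronectin receptor to which IGFBP1 binds, rose from 170 ± 19.6 to 289 ± 28.4 CPM (1.7-fold, adjusted p = 0.00191). LRP1, an endocytic receptor reported to bind IGFBP3, rose 1.76-fold (0.0316) in a gene that shares exons with STAT6. HSPA5, a chaperone, was 1.33-fold lower (0.0164) and KPNB1, an importin, 1.26-fold lower (0.0308). The call of LRP1 was lost when control replicate 1 or 3 was left out (adjusted p = 0.0854 and 0.0589), or B35 replicate 3 (0.104), and also with robust dispersion (0.0609) and DESeq2 (0.0642). That of KPNB1 was lost without any 1 of the controls, B35 replicate 2 or B35 replicate 3 (0.0622 to 0.142), and that of HSPA5 without control replicate 2 or 3 (0.0724 and 0.0879). TMEM219, a reported IGFBP3 receptor, did not pass (adjusted p = 0.192).

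Downstream of the receptors most transcripts did not pass, as was so for all genes tested, of which 15.4% passed in either direction. Of 21 tested adaptors and negative regulators, 1 fell and none rose, beside 6.59% and 8.82% of all genes, with a median log2 fold change of −0.01. PTPN11, the phosphatase SHP2, was at 266 ± 4.99 and 212 ± 6.35 CPM (1.26-fold lower, adjusted p = 0.0222). Its exons overlap those of RPL6, and the call of PTPN11 was lost without any 1 library except B35 replicate 1 (0.0541 to 0.113). At an unadjusted p under 0.05, 1 gene of this list was higher; DESeq2 and limma-voom called none higher, and 2 rose without B35 replicate 1. Of 31 tested genes of the PI3K-AKT-mTOR and FOXO relay, 3 rose and 1 fell, beside the same shares of all genes, with a median of −0.07. PIK3R1 and PIK3R2, subunit genes of phosphatidylinositol 3-kinase in this list, had too few counts to test. PIK3R1 had no count in any library. PIK3R2, which shares exons with AC007192.1, had 3 counts, all in control replicate 1. DEPTOR, an inhibitor of mTOR, rose from 0.889 ± 0.0937 to 3.18 ± 0.56 CPM (3.55-fold, adjusted p = 0.0022). FOXO4 and FOXO1 rose 1.72-fold and 1.58-fold (0.0107 and 0.0132), and FOXO1 lost its call without control replicate 1 or 3 (0.0634 and 0.0559). MTOR was 1.25-fold lower (0.0449) and lost its call without any 1 library except B35 replicate 1 (0.0618 to 0.182) and with upper-quartile scaling (0.0685). With GC and length trends removed, 6 genes of the relay rose and 6 fell, and DESeq2 called 4 in each direction. Without control replicate 1 or 3, 2 rose and none fell.

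FOXO target genes outside the set rose in 12 of 25 tested and fell in 1, beside 8.82% and 6.59% of all genes. The list was chosen with earlier results of these libraries known, among them those of TXNIP and SOD2, so its count is no independent evidence. Its median log2 fold change was 0.38. TXNIP rose from 40.7 ± 1.11 to 167 ± 4.19 CPM (4.11-fold, adjusted p = 1.01e-06). SOD2, the mitochondrial superoxide dismutase, rose 2.65-fold (2.47e-05), and its exons overlap those of WTAP. The receptor ERBB3, which shares exons with AC034102.2, rose 1.81-fold (0.000877) and CCNG2, a cyclin that slows division, 1.78-fold (0.000952). With any 1 library left out, 10 to 12 genes of the list rose. The gene that fell was the catalase gene CAT, and it did not pass without any 1 of the controls, B35 replicate 2 or B35 replicate 3, with upper-quartile scaling, or with no filter on low counts. The 3 tested IGF2 mRNA-binding proteins did not pass with edgeR, DESeq2 or limma-voom and had no unadjusted p under 0.05. IGF2BP1 was at 50.5 ± 5.24 and 49.0 ± 3.2 CPM, and IGF2BP3 at 58.7 ± 4.22 and 58.3 ± 7.0 CPM (SD, n = 3 each).

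**Figure D5:**
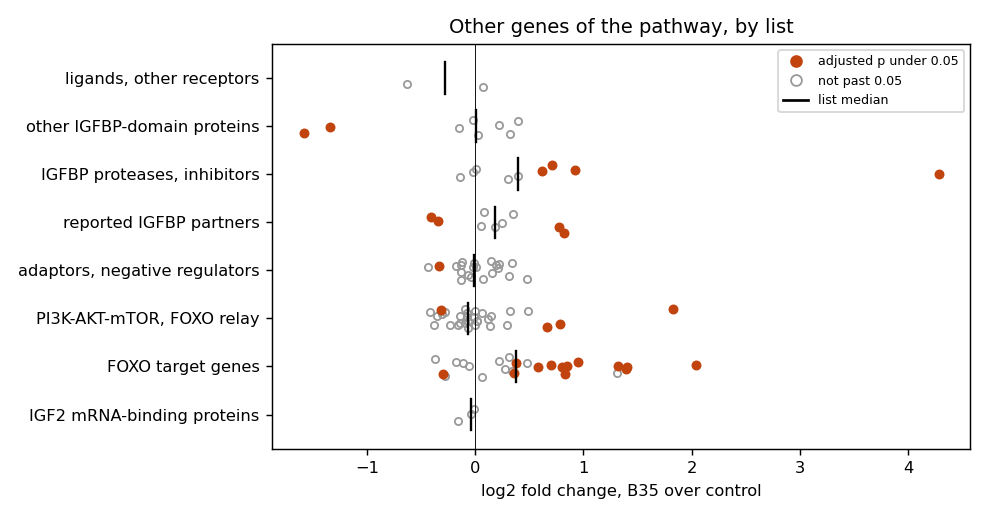
Log2 fold change of B35 over control (x axis) for each tested gene of 8 lists (y axis); filled points passed at an adjusted p under 0.05, open points did not, and bars are list medians. Medians lie between −0.28 and 0.40, the FOXO targets hold 13 filled points, and the relay of 31 genes holds 4.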

How the data were processed

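Counts per gene in 3 libraries of cells labelled A549 given B35 and in 3 untreated libraries were compared. The authors deposited whole-number counts and FPKM per gene. Per the submitters' processing notes, HISAT2 2.0.5 and featureCounts 1.5.0-p3 were used on hg38. Use of strand in counting, and the depth term of the FPKM, are not given in the sources used here. FPKM deposited by the authors served to compare levels between genes. All 58735 identifiers are in GENCODE 29. Counts were filtered with filterByExpr (minimum count 10, minimum total 15), scaled by TMM and tested with edgeR 4.0.16 in R 4.3.3 (two-sided), without a replicate term, and p-values were adjusted over 14773 genes. CPM uses the TMM factors, and an SE is the log2 fold change over the square root of F. On simulated data of 14584 genes drawn for this comparison, 43.9% of 1.5-fold, 76.9% of 2-fold and 98.5% of 4-fold changes were recovered, with 6 false calls among 149. Only 66, 65 and 65 genes were changed by these folds. In the data 15.4% of genes passed, so recovery there can differ, since the adjustment depends on the share of changed genes. The genes and lists were chosen with earlier results of these data known. Of each list, up to 4 genes that passed were named in order of adjusted p, or the 2 with the highest CPM where none passed. Genes whose absence or failure to pass is stated beside these (PAPPA, TMEM219, IGFBP5, IGFALS, PIK3R1, PIK3R2, CAT) were chosen after their values were seen. All wider-list symbols matched a gene, through GENCODE 29 or newer and older symbols. Alternatives were other scalings and filters, each library left out, a term for replicate number, edgeR's robust dispersion, correction of per-library trends with GC and gene length, DESeq2 1.42.0 and limma-voom (limma 3.58.1). Python 3.11.15, pandas 2.3.3 and matplotlib 3.10.9 made tables and plots. Floors of 3 counts cover counting error only and use library totals without the TMM factors. A gene that the naming rule would give in the list of ligands and other receptors is not reported here.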

Additional observations from a re-analysis of the deposited data

How the results depend on the processing

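With 1 library left out, 881 to 3342 of all genes and 3 to 5 of the 10 IGF genes passed, and 3810 of all genes passed with GC and length trends removed. IGFBP1, IGFBP3 and IRS2 kept their direction and call in every fit. With 1 library left out, the calls numbered 1 to 4 among IGFBP partners, 0 to 3 among adaptors, 2 to 6 in the PI3K-AKT-mTOR and FOXO relay and 2 to 3 among other IGFBP-domain proteins. With no filter on low counts 4 IGFBP-domain proteins, 2 adaptors and 8 relay genes passed, with GC and length trends removed 4, 2 and 12, and with DESeq2 8 relay genes. The cause was not tested. Genes that did not pass changed sign when 1 library was left out, over a range of −0.03 to 0.19 for IGFBP4, −0.05 to 0.18 for IRS1, −0.12 to 0.25 for IGF2R, −0.11 to 0.05 for IGF2BP3 and −0.11 to 0.04 for IGF2BP1. IGF2R was at −0.003 with GC and length trends removed and IGF2BP3 at 0.02 with upper-quartile scaling. The replicate numbers are not said to mark shared cultures, and same-numbered libraries deviated together with correlations of 0.1632, 0.0162 and −0.063. With the replicate block 2855 of all genes, 5 of the 10 IGF genes (IGFBP6 added), 2 adaptors and 7 relay genes passed. Groups of 3 limit how small a change can be called.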
